A study of Mus musculus with 2 samples.

Results

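Lipid uptake and handling was followed through 10 genes, *Fabp4*, *Fabp5*, *Cd36*, *Gpihbp1*, *Lpl*, *Rbp7*, *Apoe*, *Trem2*, *Lipa* and *Plin2*, chosen by symbol from the 50768 genes of the count matrices, where all 10 were found. The scRNAseq data came from submandibular salivary glands, with some adjacent sublingual gland, of female mice aged 20 weeks. There were 2 libraries, 1 from the inbred NOD/ShiLtJ strain, a model of Sjögren's disease, and 1 from outbred CD1 mice, used as the strain without the disease. NOD/ShiLtJ mice also develop diabetes, and the study gives no glucose state for the mice pooled for sequencing. Strain, gland disease and diabetes cannot be told apart in these libraries. Glands of several mice were pooled in each library (4 mice per strain in the study's methods, 3 in the deposited labels), both libraries carry batch number 1, and both had been depleted of EpCAM+ epithelial cells and of Ter119+ erythroid cells on magnetic columns.

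Lipids reach tissues mainly as triglyceride inside circulating lipoproteins. Lipoprotein lipase, the product of *Lpl*, is made by cells below the endothelium and is carried to the capillary lumen by GPIHBP1, where it releases fatty acids that are taken up with help from CD36 and bound inside cells by FABP4 and FABP5. Macrophages take up lipoproteins and dying cells, digest their lipids in lysosomes with the acid lipase encoded by *Lipa*, store the surplus in droplets coated by PLIN2, export cholesterol to APOE particles and sense lipids through TREM2.

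With 1 pooled library per strain, the difference between the strains has no replicate check, and no p-value was computed. Cells of a library share its mice and its preparation and are not replicates. Every level is given in CPM, UMIs of a gene per 1000000 UMIs of the cells concerned, every ratio on the log2 scale, and the intervals beside them are 95% intervals that cover counting error only. A gene was called different where the ratio was at least 2-fold and the cells compared held at least 20 of its UMIs.

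Barcodes with at least 500 UMIs and 300 genes were kept, 6500 in NOD/ShiLtJ (median 5719.5 UMIs) and 7014 in CD1 (median 6495 UMIs), with 18 barcode sequences in both. They were sorted into classes by marker UMIs, and no member was among the markers. Capillary-like cells numbered 570 in NOD/ShiLtJ and 1393 in CD1, and macrophage-like cells 711 and 2989. The endothelial gene *Pecam1* stood at 2090.1 CPM in NOD/ShiLtJ and 1913 CPM in CD1 capillary-like cells, and at 13.0 and 8.24 CPM in macrophage-like cells. The complement gene *C1qa* stood at 5066 and 5136 CPM in macrophage-like cells, and at 15.0 and 20.2 CPM in capillary-like cells. *Adipoq*, the defining adipocyte gene, had no UMI in either class, and no barcode was classed as an adipocyte. *Pecam1*, *C1qa* and *Adipoq* were themselves markers used in the sorting. Their levels describe the classes and are no separate check of them.

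The libraries stood apart in ways that touch the comparison of strains. An unsupervised graph was built on both libraries together, with each gene centred and scaled within its own library. The libraries differed in make-up, with T-like cells 31.9% of NOD/ShiLtJ and 1.43% of CD1 barcodes. The part of this scaling in the split between clusters was not tested. On this graph, 79.6% of NOD/ShiLtJ capillary-like cells lay in a cluster led by *Rsad2*, an interferon-induced gene, *Dnm3* and *Fbln2*, which held none of the CD1 ones. Of the CD1 ones, 67.1% lay in a cluster led by *Plpp1*, *Kdr* and *Plpp3*. CD1 macrophage-like cells lay mainly in a cluster led by *Hpgd* and *Cx3cr1* (55.7%, median 9115 UMIs) and in a shallow cluster led by the secretory gene *Mucl1* (31.8%, median 1618 UMIs). The NOD/ShiLtJ ones lay in 2 clusters led by the chemokine gene *Ccl12*, also a shallow cluster (46.7%, median 1501 UMIs) and a deep cluster (45.3%, median 8924 UMIs). Median depth also differed, at 4055.5 UMIs in NOD/ShiLtJ and 5101 in CD1 capillary-like cells, and at 3062 and 6809 in macrophage-like cells. Strain and library cannot be told apart, and the part of depth in the strain differences is given only as values within ranges of depth.

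RefSeq promoter entries (GRCm38.p6, not the GRCm39 build that the submitters' processing notes name) were matched for 6 of the 10 members. The windows below hold the 150 bases that lie 170 to 21 bases before the annotated start, on the gene's strand. They show the 3 members with a match to any of 4 short motifs searched on both strands, a GC box GGGCGG, an ETS-type AGGAAG, a nuclear receptor half-site AGGTCA and an E-box CACGTG. These motifs occurred in 26.4%, 19.0%, 8.75% and 3.99% of 32851 promoter windows of the same length. Capitals mark the matches, as read on the printed strand.
Rbp7, chr4:149454989-149455138, minus strand: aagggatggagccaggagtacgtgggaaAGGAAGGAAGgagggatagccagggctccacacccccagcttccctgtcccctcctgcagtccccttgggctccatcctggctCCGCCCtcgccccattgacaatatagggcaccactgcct
Cd36, chr5:17835917-17836066, minus strand: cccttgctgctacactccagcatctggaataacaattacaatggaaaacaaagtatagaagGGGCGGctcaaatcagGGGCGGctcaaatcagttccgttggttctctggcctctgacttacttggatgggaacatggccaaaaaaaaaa
Trem2, chr17:48346231-48346380, plus strand: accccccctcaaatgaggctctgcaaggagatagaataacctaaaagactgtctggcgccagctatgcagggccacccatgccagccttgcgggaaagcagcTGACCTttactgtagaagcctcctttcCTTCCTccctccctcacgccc
The *Rbp7* window held 2 overlapping AGGAAG copies and 1 GC box, the *Cd36* window 2 GC boxes, and the *Trem2* window 1 AGGTCA and 1 AGGAAG. *Cd36* has several annotated starts, and the window belongs to 1 of them. The windows of *Apoe*, *Lipa* and *Plin2* held none of these letters. A match is a description of the letters and not of a bound factor.

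The members divided between the capillary wall and the macrophages. *Fabp4*, *Fabp5*, *Gpihbp1* and *Rbp7* were higher in capillary-like cells than in macrophage-like cells in both libraries, *Lpl*, *Apoe* and *Trem2* were lower in both, *Lipa* stayed within 2-fold in both, and *Cd36* and *Plin2* depended on the library. Thus 4 of 10 members were at least 2-fold higher in the capillary class of each library, beside 21.8% of 12401 genes in NOD/ShiLtJ and 21.1% of 15193 genes in CD1. The count lower was also 4 of 10 in each, beside 21.8% and 25.5% of all genes. The median ratio over the members was -0.09 in NOD/ShiLtJ and -0.44 in CD1, against 0.11 and 0.07 over all genes tested.

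**Figure D1:**
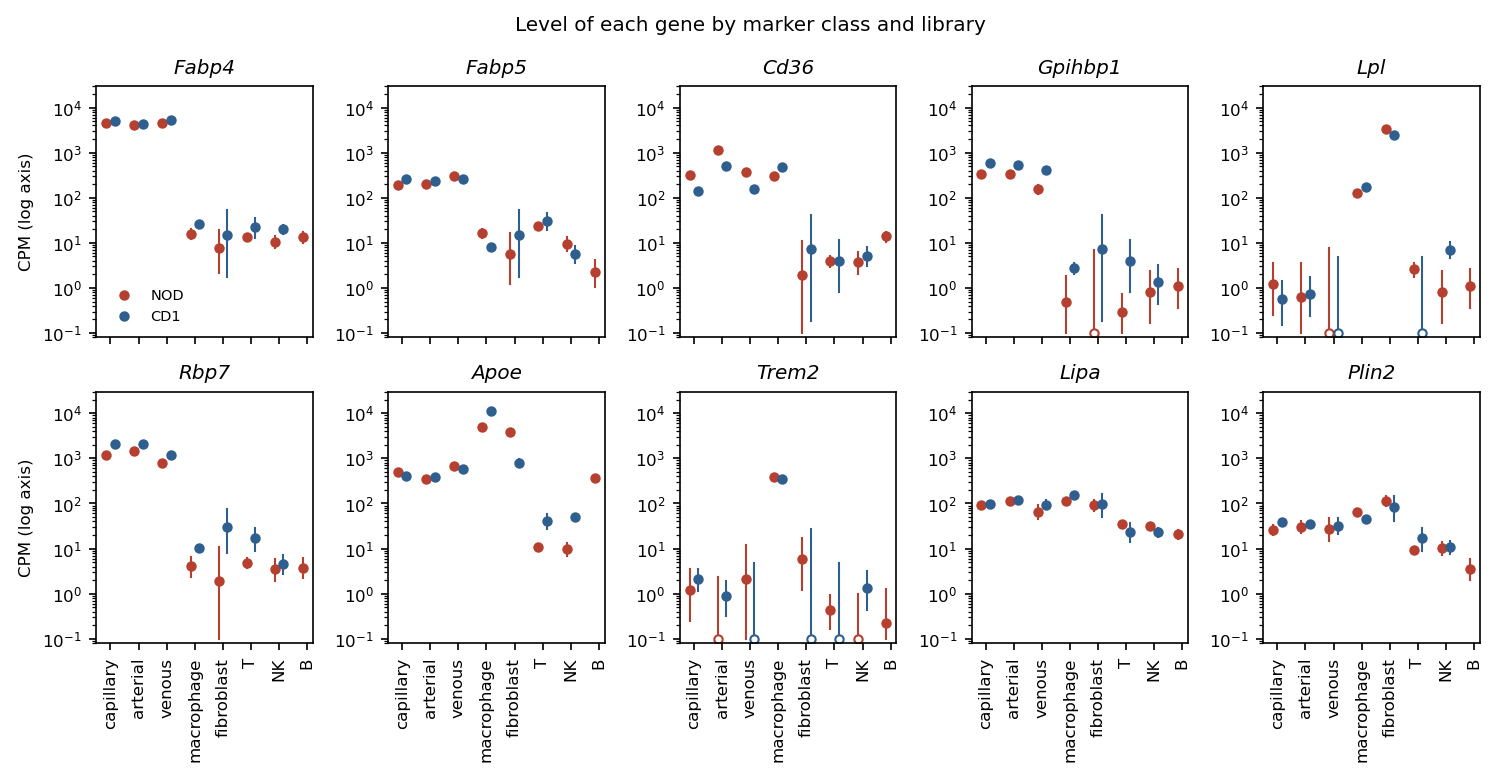
Level of each member (CPM, log axis) in each cell class, with NOD/ShiLtJ and CD1 as separate points, vertical lines as 95% Poisson intervals and open circles for 0 UMIs, without classes of under 20 cells in a library. *Fabp4*, *Gpihbp1* and *Rbp7* peak in the endothelial classes, *Trem2* in macrophage-like cells and *Lpl* in fibroblast-like cells.

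*Fabp4*, which encodes the adipocyte and endothelial fatty acid binding protein, stood at 4633 CPM in NOD/ShiLtJ and 5072 CPM in CD1 capillary-like cells. Its capillary over macrophage ratio was 8.22 (7.86 to 8.61) and 7.60 (7.48 to 7.73). Of all *Fabp4* UMIs in kept barcodes, 91.5% in NOD/ShiLtJ and 93.3% in CD1 lay in endothelial classes. When each cell was thinned to 500 UMIs, 67.2% of NOD/ShiLtJ and 76.2% of CD1 capillary-like cells still held a *Fabp4* UMI, against 93.0% and 94.3% unthinned. The gene was close to flat along the vascular tree, at 4199 and 4350 CPM in arterial-like cells and 4623 and 5332 CPM in venous-like cells. Macrophage-like cells held 15.5 and 26.1 CPM, below the 22.3 and 45.9 CPM that free RNA, estimated from empty droplets, would bring, so the macrophage level reads as background.

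*Rbp7*, a cellular retinol binding protein of microvascular endothelium, followed the same division. It stood at 1215 CPM in NOD/ShiLtJ and 2124 CPM in CD1 capillary-like cells, with capillary over macrophage ratios of 8.24 (7.54 to 9.05) and 7.67 (7.47 to 7.88). The macrophage levels of 4.01 and 10.4 CPM again lay under the free RNA estimates of 5.58 and 18.7 CPM. Unlike *Fabp4*, *Rbp7* was lower in venous-like cells, at 793 and 1195 CPM, than in capillary-like cells of the same library, by -0.62 (-0.77 to -0.46) in NOD/ShiLtJ and -0.83 (-0.93 to -0.73) in CD1. These venous differences are under 2-fold but outside counting error.

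*Fabp5*, the broadly expressed fatty acid binding protein of the same family, was less confined to endothelium. Capillary-like cells held 196 CPM in NOD/ShiLtJ and 265 CPM in CD1, macrophage-like cells 16.3 and 8.13 CPM, and T-like cells 24.2 and 29.995 CPM. The capillary over macrophage ratio was 3.59 (3.22 to 3.99) in NOD/ShiLtJ and 5.02 (4.79 to 5.26) in CD1. Endothelial classes held 54.7% of all *Fabp5* UMIs in NOD/ShiLtJ and 88.8% in CD1. T-like cells, of which there were 2075 in NOD/ShiLtJ and 100 in CD1, held 14.2% of the NOD/ShiLtJ total. The macrophage value of NOD/ShiLtJ turned on 1 barcode of 11139 UMIs, which held 28 of the 65 *Fabp5* UMIs. Without the largest barcode of each library, macrophage-like cells held 9.29 and 8.04 CPM.

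*Gpihbp1*, the anchor that moves lipoprotein lipase across capillary endothelium and holds it in the lumen, was at 337 CPM in NOD/ShiLtJ and 604 CPM in CD1 capillary-like cells. In CD1 its capillary over macrophage ratio was 7.79 (7.40 to 8.21). In NOD/ShiLtJ the ratio was 9.39 (7.54 to 12.44), on 2 macrophage UMIs. The macrophage levels, 0.501 and 2.73 CPM, were under the free RNA estimates of 0.959 and 4.43 CPM. Venous-like cells, 66 in NOD/ShiLtJ and 101 in CD1, held 156 and 416 CPM, lower than capillary-like cells by -1.11 (-1.48 to -0.77) and -0.54 (-0.71 to -0.38). *Gpihbp1* in NOD/ShiLtJ was the 1 member past 2-fold lower there, beside 6.4% of genes in NOD/ShiLtJ and 5.18% in CD1. Arterial-like cells, 215 and 785, held 334 and 533 CPM, close to the capillary values.

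*Lpl*, the enzyme that GPIHBP1 carries, was nearly absent from the endothelium that expressed its anchor. Capillary-like cells held 3 *Lpl* UMIs in NOD/ShiLtJ (1.22 CPM) and 4 in CD1 (0.558 CPM), levels close to the free RNA estimates of 1.84 and 1.31 CPM. Macrophage-like cells held 126 and 174 CPM, giving capillary over macrophage ratios of -6.69 (-8.97 to -5.14) and -8.29 (-10.16 to -6.93). The highest level was in fibroblast-like cells, at 3418 CPM over 60 NOD/ShiLtJ cells and 2480 CPM (2221 to 2760 CPM) over 20 CD1 cells. Fibroblast-like cells were 4.76 (4.62 to 4.91) above macrophage-like cells in NOD/ShiLtJ and 3.83 (3.67 to 3.99) in CD1, where 21.1% and 20.5% of all genes were at least 2-fold higher. The CD1 fibroblast-like cells were shallower, with a median of 1595 UMIs against 7801.5 in NOD/ShiLtJ, and 9 of the 20 had high doublet scores, against 2 of 60. Without these, *Lpl* stood at 3433 and 2519.8 CPM (2191 to 2884 CPM) in fibroblast-like cells. More than 10% of UMIs were mitochondrial in 10 of the 20 CD1 and 25 of the 60 NOD/ShiLtJ cells. The 20 CD1 fibroblast-like cells held 7.59% of all CD1 *Lpl* UMIs, while macrophage-like cells held 78.2%. In NOD/ShiLtJ these shares were 62.0% and 17.6%.

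*Cd36*, the fatty acid translocase and scavenger receptor, was found at substantial levels on both sides, as was *Apoe*. In NOD/ShiLtJ, capillary-like cells held 316 CPM and macrophage-like cells 297 CPM, a ratio of 0.09 (-0.04 to 0.22). In CD1 the values were 143 and 475 CPM, a ratio of -1.73 (-1.82 to -1.63). Both ratios depended on which endothelial cells were taken. With all endothelial-like cells in place of capillary-like ones, they were 1.03 in NOD/ShiLtJ and -0.69 in CD1, the latter under 2-fold. That alternative was chosen after seeing the data. Endothelial classes held 65.1% of the *Cd36* UMIs of NOD/ShiLtJ but 34.8% of those of CD1, and macrophage-like cells 22.0% and 58.4%. T-like cells, which should lack the gene, held 3.89 CPM of *Cd36* in NOD/ShiLtJ and 3.91 CPM in CD1, near the free RNA estimates of 3.60 and 8.96 CPM.

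Within the endothelium *Cd36* was highest in arterial-like cells. By the sorting rule, arterial-like cells held at least 3 arterial markers and capillary-like cells fewer than 2. Cells in which *Cd36* stood higher with more arterial markers were thus kept out of the capillary class. Arterial-like cells held 1170.5 CPM in NOD/ShiLtJ and 506 CPM in CD1, above capillary-like cells of the same library by 1.89 (1.77 to 2.01) and 1.82 (1.72 to 1.92). It was the 1 member at least 2-fold higher in arterial-like cells, where 3.02% of 10712 genes in NOD/ShiLtJ and 3.32% of 12609 genes in CD1 were. Venous-like cells, at 366 and 154 CPM, did not differ from capillary-like cells beyond counting error. Over all endothelial-like cells with fewer than 2 venous markers, *Cd36* was higher with each further arterial marker seen. In NOD/ShiLtJ it went from 263 CPM with none through 344, 613 and 836 to 1413 CPM with 4 or more, and in CD1 from 115 through 156, 262 and 327 to 618 CPM. *Rbp7* was also higher with each further marker up to 3, from 1107 to 1902 CPM in NOD/ShiLtJ and from 1982 to 2372 CPM in CD1, and then lower with 4 or more, at 1226 and 1964 CPM. *Gpihbp1* had the same order, from 293 to 407 CPM and from 531 to 629 CPM, then 316 and 474 CPM. *Cd36* thus parted from both at the last step. Median depth moved with the marker count, from 3023 to 6770 UMIs in NOD/ShiLtJ and from 2089 to 7174 UMIs in CD1, and its part in these gradients was not tested.

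**Figure D2:**
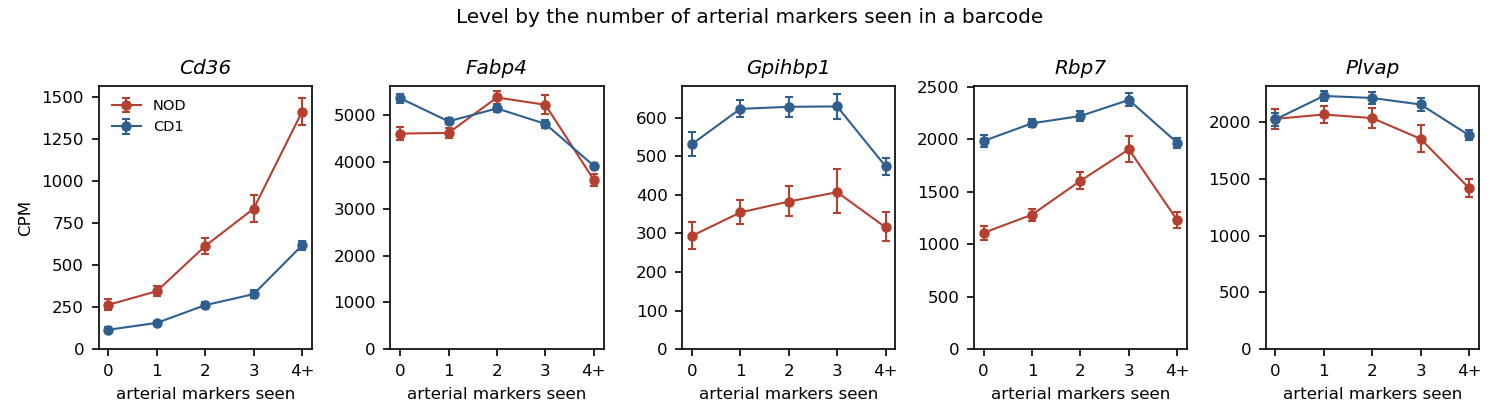
Level (CPM) of *Cd36*, *Fabp4*, *Gpihbp1*, *Rbp7* and the capillary marker *Plvap* in endothelial-like cells by the number of arterial markers seen (0 to 4 or more), per library, with 95% Poisson intervals. *Cd36* goes from 263 to 1413 CPM in NOD/ShiLtJ and from 115 to 618 CPM in CD1.

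*Apoe*, which encodes the apolipoprotein that macrophages load with exported cholesterol, stood at 5007 CPM in NOD/ShiLtJ and 11104 CPM in CD1 macrophage-like cells. Capillary-like cells held 487 and 400 CPM, above the free RNA estimates of 19.8 and 87.6 CPM. Macrophage-like cells held 65.4% of all *Apoe* UMIs in NOD/ShiLtJ and 89.4% in CD1. Fibroblast-like cells were a further source, at 3874 CPM in NOD/ShiLtJ and 792 CPM in CD1, a NOD/ShiLtJ over CD1 ratio of 2.29 (2.01 to 2.58) where 17.1% of genes were at least 2-fold higher. Without the fibroblast-like cells of high doublet scores, an alternative chosen after seeing the data, these values were 3891 and 1111 CPM, a ratio of 1.81 (1.51 to 2.12). *Trem2*, the lipid-sensing receptor of macrophages, was at 382 and 353 CPM in macrophage-like cells, which held 90.9% and 93.8% of its UMIs, and at 1.22 and 2.09 CPM in capillary-like cells.

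*Lipa*, the lysosomal acid lipase, was present at similar levels in several classes. It stood at 92.2 CPM in NOD/ShiLtJ and 95.6 CPM in CD1 capillary-like cells, 112 and 157 CPM in macrophage-like cells, 90.7 and 96.2 CPM in fibroblast-like cells and 34.2 and 23.5 CPM in T-like cells. Capillary over macrophage ratios were -0.28 (-0.51 to -0.04) and -0.72 (-0.84 to -0.60). *Plin2*, the lipid droplet coat protein, was at 25.6 and 39.7 CPM in capillary-like cells and 63.4 and 44.4 CPM in macrophage-like cells. It was thus lower in capillary-like cells by -1.31 (-1.73 to -0.90) in NOD/ShiLtJ, while the CD1 ratio of -0.16 (-0.36 to 0.04) did not leave counting error.

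**Figure D3:**
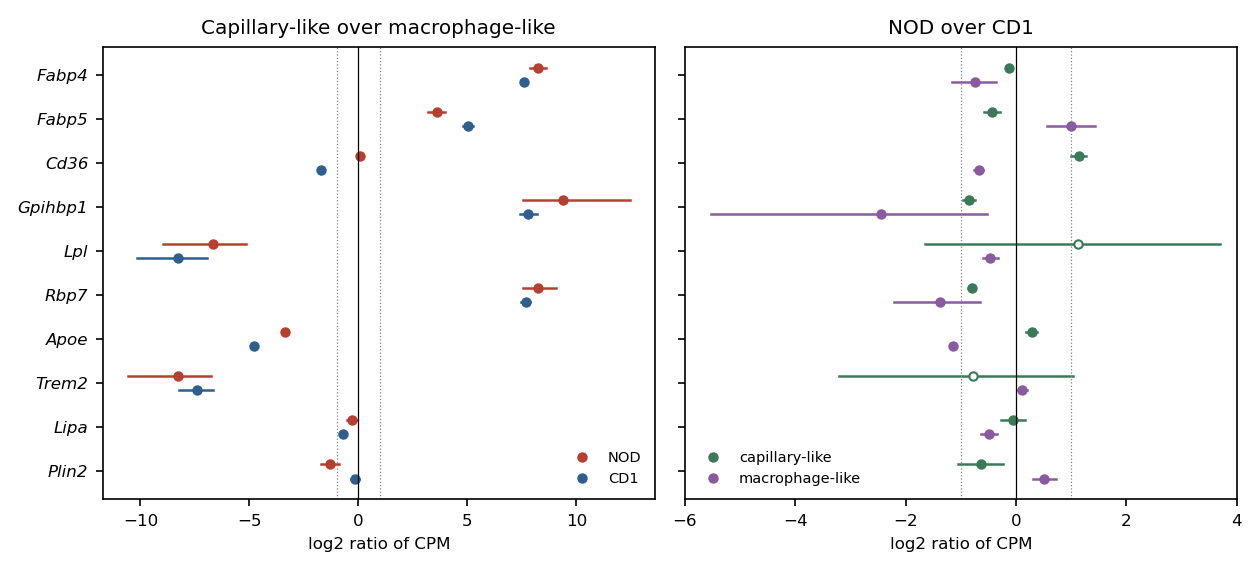
Log2 ratios of each member with 95% counting intervals: on the left capillary-like over macrophage-like cells in each library, on the right NOD/ShiLtJ over CD1 within each class, with dotted lines at 2-fold either way and open points under 20 UMIs. *Cd36* in capillary-like cells lies at 1.14 and *Apoe* in macrophage-like cells at -1.15 between the libraries.

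Between the strains, the member that differed most in capillary-like cells was *Cd36*. It was at 316 CPM in NOD/ShiLtJ and 143 CPM in CD1, a NOD/ShiLtJ over CD1 ratio of 1.14 (1.00 to 1.27). This was 1 of the 8 members with enough UMIs, beside 6.52% of 12104 genes at least 2-fold higher in NOD/ShiLtJ, and no member was 2-fold lower, beside 3.8% of genes. The ratio was close to this in the other vessels, at 1.21 (1.13 to 1.29) in arterial-like cells and 1.25 (0.90 to 1.60) in venous-like cells, where 4.63% and 4.89% of genes were at least 2-fold higher. Thinned to 500 UMIs, 15.8% of NOD/ShiLtJ and 7.18% of CD1 capillary-like cells held a *Cd36* UMI, and 40.9% and 21.5% of arterial-like cells. The order held within ranges of depth: capillary-like cells with 500 to under 2000 UMIs had 482 CPM in NOD/ShiLtJ and 244 CPM in CD1, those with 2000 to under 5000 UMIs had 332 and 194 CPM, and those with at least 5000 UMIs had 289 and 126 CPM.

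*Gpihbp1* and *Rbp7*, which had similar patterns over the classes, were both lower in the NOD/ShiLtJ capillary-like cells. The ratio was -0.84 (-0.95 to -0.74) for *Gpihbp1* and -0.81 (-0.86 to -0.75) for *Rbp7*, outside counting error and under 2-fold. In the other vessels they were also lower, *Gpihbp1* by -0.68 (-0.81 to -0.54) in arterial-like and -1.42 (-1.80 to -1.05) in venous-like cells, *Rbp7* by -0.54 (-0.60 to -0.47) and -0.59 (-0.77 to -0.42). Of all genes, 6.5% were at least 2-fold lower in the venous-like cells. The share of capillary-like cells with a UMI after thinning to 500 UMIs was 14.6% in NOD/ShiLtJ and 23.0% in CD1 for *Gpihbp1*, and 36.1% and 54.2% for *Rbp7*. *Fabp4* differed little between the strains, by -0.13 (-0.16 to -0.10). *Fabp5* was lower by -0.43 (-0.58 to -0.29) and *Plin2* by -0.63 (-1.05 to -0.24), *Apoe* was higher by 0.28 (0.18 to 0.38), and *Lipa*, at -0.05 (-0.28 to 0.17), did not differ beyond counting error. *Lpl* and *Trem2* held too few UMIs. The median over the 8 members was -0.28, against 0.08 over all genes tested.

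In macrophage-like cells the widest strain difference among well-measured members was in *Apoe*, at 5007 CPM in NOD/ShiLtJ and 11104 CPM in CD1, a ratio of -1.15 (-1.17 to -1.13). After thinning to 500 UMIs, 59.6% of NOD/ShiLtJ and 84.6% of CD1 macrophage-like cells held an *Apoe* UMI. *Cd36* was lower by -0.68 (-0.77 to -0.59), *Lpl* by -0.47 (-0.61 to -0.33) and *Lipa* by -0.49 (-0.64 to -0.35). *Plin2* was higher by 0.51 (0.31 to 0.72), and *Trem2* by 0.11 (0.03 to 0.19), at 382 and 353 CPM. Over all depths together, *Trem2* thus stood at nearly the same level in macrophage-like cells that differed 2-fold in *Apoe*. Within ranges of depth, *Trem2* was higher in NOD/ShiLtJ in each. It stood at 430 against 335 CPM in CD1 under 2000 UMIs and at 421 against 337 CPM from 2000 to under 5000 UMIs. With at least 5000 UMIs the levels were close, at 372 and 355 CPM.

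Of the 10 members in macrophage-like cells, 1 was at least 2-fold higher in NOD/ShiLtJ, beside 7.58% of 14420 genes, and 3 were at least 2-fold lower, beside 5.32%. The member higher was *Fabp5*, at 1.00 (0.56 to 1.42), and without the largest barcode of each library its ratio was 0.21 (-0.35 to 0.73). Of the 3 lower, *Gpihbp1* at -2.45 (-5.53 to -0.52) and *Rbp7* at -1.38 (-2.21 to -0.64) lay at or under the free RNA level in both libraries, so *Apoe* was the 1 lower member measured above background. The median over the members was -0.58, against 0.05 over all genes tested.

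The *Apoe* difference was present at each depth. Macrophage-like cells with 500 to under 2000 UMIs held 9669 CPM in NOD/ShiLtJ and 13009 CPM in CD1, those with 2000 to under 5000 UMIs 6357 and 11823 CPM, and those with at least 5000 UMIs 4349.8 and 10934 CPM. *Cd36* in macrophage-like cells went the other way with depth, from 101 to 331 CPM in NOD/ShiLtJ and from 172 to 511 CPM in CD1, and was lower in NOD/ShiLtJ in each range. *Lpl* also stood higher in deep cells, at 142 and 189 CPM above 5000 UMIs against 57.9 and 60.3 CPM under 2000 UMIs. *Plin2* was higher in NOD/ShiLtJ in each of these ranges, at 64.0, 59.5 and 63.8 CPM against 31.1, 41.0 and 45.4 CPM. The order of *Lipa* did not hold over the ranges. It was lower in NOD/ShiLtJ only with at least 5000 UMIs, at 121 against 170 CPM in CD1. Under 2000 UMIs it stood at 54.9 against 47.7 CPM, and from 2000 to under 5000 UMIs at 82.3 against 81.3 CPM.

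When the macrophage-like cells of both libraries were clustered together, 9 clusters formed, each with cells of both libraries. *Apoe* was lower in NOD/ShiLtJ in 9 of 9 clusters, ranging over them from 769 to 10692 CPM in NOD/ShiLtJ and from 2395 to 16557 CPM in CD1. *Cd36* was lower in 8 of 9 and *Lpl* in 6 of 9, while *Trem2* and *Plin2* were each higher in 7 of 9. The cluster with the least *Apoe* in NOD/ShiLtJ, 31 NOD/ShiLtJ and 50 CD1 cells led by *Plac8*, *S100a4* and *Fn1*, held 769 and 3206 CPM of *Apoe* and 119 and 139 CPM of *Trem2*. In it 23 cells had high doublet scores.

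**Figure D4:**
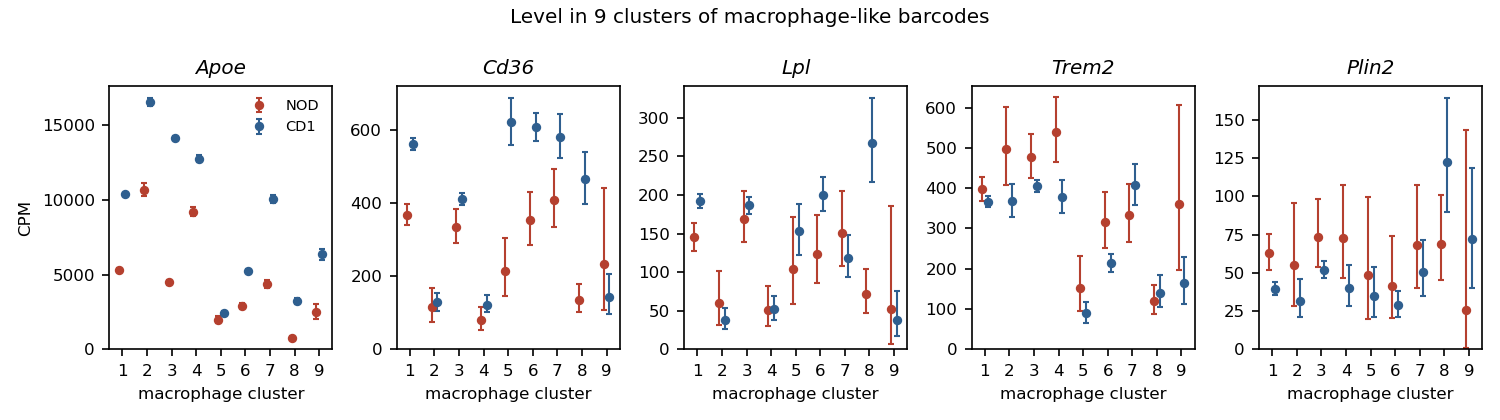
Level (CPM) of *Apoe*, *Cd36*, *Lpl*, *Trem2* and *Plin2* in 9 clusters of macrophage-like cells, per library, with 95% Poisson intervals. The NOD/ShiLtJ point for *Apoe* is below the CD1 point in all 9 clusters, while *Trem2* is above it in 7.

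Joint detection in single cells differed between pairs of members. Each cell was thinned to 1000 UMIs, which left 644 NOD/ShiLtJ and 2802 CD1 macrophage-like cells. Among these, *Lpl* was detected in 13.9% of NOD/ShiLtJ and 16.9% of CD1 cells that held *Cd36*, against 5.86% and 9.48% of the others. Both genes stood higher in cells that were deep before thinning, and the part of depth in this pair was not tested. *Trem2* was detected in 35.9% and 29.3% of cells with *Apoe*, against 20.9% and 13.5% of cells without it. Other pairs in macrophage-like cells were level or went the other way. *Trem2* was detected in 32.2% and 28.2% of cells with *Cd36* against 31.0% and 27.6% without, and *Apoe* in 66.1% and 87.9% of cells with *Cd36* against 69.4% and 91.5% without. In NOD/ShiLtJ *Trem2* was detected in 21.3% of the 47 cells with *Lpl* against 32.0% without, and in CD1 in 30.9% of 324 against 27.4%. *Apoe* was detected in 59.6% and 88.0% of cells with *Lpl* against 69.5% and 90.8% without. In capillary-like cells *Rbp7* was detected in 62.3% and 79.3% of cells with *Gpihbp1*, against 48.4% and 67.9% without. *Gpihbp1* was detected in 38.0% and 40.1% of those with *Cd36*, against 21.7% and 37.9% without. *Apoe* was detected in 41.5% and 33.8% of those with *Gpihbp1*, against 30.7% and 30.8% without. *Apoe* with *Rbp7* went opposite ways, at 36.4% against 30.3% in NOD/ShiLtJ and 31.3% against 33.7% in CD1.

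Likeness was measured as Pearson's r of log2(CPM + 10) over 18 points, each a class in a library with at least 50 cells, among 12954 genes. The points share libraries, and r is given as a description. The gene most like *Gpihbp1* was *Rbp7* (0.995), and *Rbp7* was in turn most like *Kdr* (0.998), a capillary marker used to sort the cells. *Fabp4* was most like *Egfl7* (0.999), an endothelial marker also used for sorting. Among the others, *Fabp5* was most like *Gcnt2* (0.985), *Cd36* like *Pik3r6* (0.966), *Lpl* like *Kctd16* (0.990), *Trem2* like *Or5v1b* (0.998), *Lipa* like *Ptpra* (0.974), *Plin2* like *Lrpap1* (0.959) and *Apoe* like *Stard13* (0.930).

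A further 106 lipid genes in 8 lists gave the setting of the members. In NOD/ShiLtJ, 15 of 66 genes with enough UMIs were at least 2-fold higher in capillary-like than in macrophage-like cells and 31 were lower. In CD1 these counts were 14 and 35 of 74. Over all genes 21.8% were higher and 21.8% lower in NOD/ShiLtJ and 21.1% and 25.5% in CD1, so the lists were near the background in the genes higher and above it in the genes lower. The median ratio was -0.73 and -0.66, against 0.11 and 0.07 over all genes tested. However, 1 of the 8 lists holds *Trem2* partners and lipid-associated macrophage genes. Its direction against macrophage-like cells was largely fixed by that choice of genes. These genes are part of the counts lower and of the medians, which were not computed without them.

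The lists were small, and their counts are to be read against the same shares over all genes. Of the lipases and their partners, 4 were higher and 1 lower of 9 in NOD/ShiLtJ, and 4 were higher and 3 lower of 11 in CD1. *Mgll*, which splits monoglycerides, was at 746 against 20.0 CPM in NOD/ShiLtJ and 1764 against 20.0 CPM in CD1, and *Lipe*, the hormone-sensitive lipase, at 163 against 24.5 CPM and 140 against 29.1 CPM. On the macrophage side was *Pla2g15*, a lysosomal phospholipase, at 4.06 against 75.9 CPM and 5.995 against 85.6 CPM. Of the carriers 3 were higher and 3 lower in each library, of 11 and 12. *Cav1*, the caveolar coat protein, was at 710.4 against 1.00 CPM in NOD/ShiLtJ and 714 against 3.54 CPM in CD1, and *Acsl1*, which activates fatty acids, at 15.8 against 305 CPM and 19.7 against 335 CPM.

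Regulators were mixed, with 5 higher and 3 lower of 11 in NOD/ShiLtJ and 4 higher and 3 lower of 11 in CD1. *Tcf15* and *Meox1*, transcription factors of capillary endothelium, were at 93.0 and 91.4 CPM in NOD/ShiLtJ and at 148 and 165 CPM in CD1 capillary-like cells, each under 1 CPM in macrophage-like cells. Of the retinoid carriers, none reached 20 UMIs in NOD/ShiLtJ and 1 did in CD1.

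In several lists more genes were lower than higher in capillary-like cells, in both libraries. These were the receptors, the apolipoprotein and efflux genes, the *Trem2* partners and, on few genes, the droplet genes. Of the lipoprotein and scavenger receptors 1 was higher and 5 lower of 7 in NOD/ShiLtJ, and 1 was higher and 6 lower of 9 in CD1. The receptor higher was *Scarb1*, the high-density lipoprotein receptor, at 552 against 18.8 CPM and 475 against 19.4 CPM. The scavenger receptor *Msr1* had no UMI in NOD/ShiLtJ capillary-like cells and 0.139 CPM in those of CD1, against 51.6 and 49.9 CPM. Apolipoprotein and efflux genes were 2 higher and 8 lower of 11 in NOD/ShiLtJ and 1 higher and 9 lower of 12 in CD1, and *Pltp*, the phospholipid transfer protein, was among those higher in both, at 457 against 24.8 CPM and 563 against 14.9 CPM. *Ch25h*, which makes 25-hydroxycholesterol, was at 3.25 against 131 CPM and 2.09 against 193 CPM. *Trem2* partners and lipid-associated macrophage genes were 0 higher and 10 lower of 11 in NOD/ShiLtJ and 0 higher and 9 lower of 10 in CD1, among them *Tyrobp*, the TREM2 adaptor, at 8.53 against 1724 CPM and 13.2 against 2073 CPM. Droplet genes gave 0 higher and 1 lower of 6 in NOD/ShiLtJ, and 1 higher and 2 lower of 8 in CD1.

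Between the strains, 5 of these lipid genes were higher and 2 lower in NOD/ShiLtJ of 55 in capillary-like cells, and 6 were higher and 5 lower of 74 in macrophage-like cells. The shares over all genes were 6.52% higher and 3.8% lower in capillary-like cells and 7.58% and 5.32% in macrophage-like cells, close to those of the lists. In capillary-like cells *Mgll*, at 746 CPM in NOD/ShiLtJ and 1764 CPM in CD1, differed by -1.24 (-1.31 to -1.17), and *Hilpda*, a lipid droplet protein induced by hypoxia, at 11.4 and 26.8 CPM, by -1.24 (-1.86 to -0.66). *Meox1*, at 91.4 and 165 CPM, differed by -0.85 (-1.07 to -0.65), under 2-fold. The 5 higher were all low, at 4.87 to 18.3 CPM in NOD/ShiLtJ on 12 to 45 UMIs, and their free RNA levels were not estimated. They were *Sorl1* at 1.96 (0.92 to 3.03), *Slc27a4* at 1.26 (0.49 to 2.03) and *Syk* at 1.13 (0.54 to 1.71), and, named after their values were seen, *Hcst* at 1.54 (0.26 to 2.83) and *Lgals3* at 1.04 (-0.16 to 2.19). In macrophage-like cells *Spp1*, osteopontin, was at 11.5 CPM in NOD/ShiLtJ and 151 CPM in CD1, a ratio of -3.71 (-4.16 to -3.29), on 46 UMIs in 31 NOD/ShiLtJ cells and 2985 UMIs in 984 CD1 cells. *Clec7a*, a glucan receptor, was at 105 and 177 CPM, a ratio of -0.74 (-0.89 to -0.60). Of the 6 genes higher in NOD/ShiLtJ macrophage-like cells, *Lgals3*, galectin-3, had the most UMIs, at 217 CPM in NOD/ShiLtJ and 94.9 CPM in CD1, a ratio of 1.19 (1.08 to 1.31). Its largest NOD/ShiLtJ barcode held 153 of 867 UMIs, and without the largest barcode of each library the ratio was 0.97 (0.84 to 1.10). *Nr1h3*, the liver X receptor alpha, was at 8.51 and 2.58 CPM, a ratio of 1.72 (1.05 to 2.38), and 1.59 (0.87 to 2.28) without the largest barcodes. Both were named after their values were seen. *Gpnmb*, a glycoprotein of lipid-laden macrophages, had a ratio of 4.42 (3.53 to 5.41), but 55 of its 56 NOD/ShiLtJ UMIs came from the barcode that also held 28 *Fabp5* UMIs. That barcode also held 19 *Trem2*, 89 *Apoe* and 29 *C1qa* UMIs and did not have a high doublet score. *Tfec*, a transcription factor of macrophages, had a ratio of 5.63 (3.95 to 7.99) on 30 UMIs in NOD/ShiLtJ and 3 in CD1. The NOD/ShiLtJ UMIs lay in 10 cells, 1 of which held 14 of them. Without the largest barcode of each library the ratio was 5.32 (3.24 to 8.49).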

How the data were processed

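The deposited files are raw UMI counts per gene and barcode, unfiltered, 1 matrix per library. Per the submitters' processing notes, Cell Ranger 8.0.0 and GRCm39 were used, with Seurat 5.0.1 and R 4.3.1 also named. The authors' cell filters were not carried in these counts, so barcodes with at least 500 UMIs and 300 genes were kept, holding 43439635 UMIs in NOD/ShiLtJ and 49420810 in CD1. No doublet was removed in the values given beyond barcodes with mixed markers; high doublet scores are the top Scrublet scores, 0.8% of barcodes per 1000 in each library. The members and lists were chosen with earlier results of these data known.

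Each barcode was classed by how many markers of 19 lists it held: at least 2 of the top list, which also had to show at least 2 times as many as any other list. Endothelial-like barcodes were divided by arterial (at least 3), venous (at least 2) and capillary (at least 2) markers. Capillary-like ones also had to hold fewer than 2 arterial and fewer than 2 venous markers. Those that met none of the rules, 193 in NOD/ShiLtJ and 566 in CD1, were kept as remaining endothelial-like barcodes. This scoring rule was set after seeing the data. Capillary, lymphatic, arterial and venous classes together with the remaining endothelial-like barcodes are called endothelial.

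Counts were summed per class and library and divided by the total. Levels have exact Poisson intervals, ratios conditional binomial intervals and shares Clopper-Pearson intervals. Where a count was 0, a floor of 3 counts was used. All UMIs of a barcode of 10 to 100 UMIs counted as free RNA, whose share in a class was estimated from markers that the class should lack. Named lipid genes were, per list, up to 2 with the highest ratio each way between classes, and up to 3 each way between strains, of which a selection is printed. Tested on simulated data, the intervals held the true ratio for 96.4% of 12401 genes (capillary against macrophage, NOD/ShiLtJ) and 95.7% of 12104 genes (strains, capillary). The simulated counts were Poisson draws, which the intervals assume. Uneven holding of UMIs among cells was not simulated, so the result checks the calculation only. Doublet scores came from Scrublet in scanpy 1.11.5, clusters from leidenalg 0.10.2, and statistics from scipy 1.17.1 under Python 3.11.15.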

Additional observations from a re-analysis of the deposited data

Results flagged for a closer look

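For 4 members the NOD/ShiLtJ over CD1 ratio had opposite directions in capillary-like and macrophage-like cells, with both intervals clear of 0. *Cd36* was 1.14 in capillary-like and -0.68 in macrophage-like cells, *Apoe* 0.28 and -1.15, *Plin2* -0.63 and 0.51, and *Fabp5* -0.43 and 1.00. With 1 library per strain these differences between the classes were not tested. The *Fabp5* value in macrophage-like cells was 0.21 without the largest barcode of each library.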

How the results depend on the processing

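Of 192 counts recomputed under other settings, 175 stayed within 1.5 times and 17 did not. The counts between capillary-like and macrophage-like cells did not move past that in any setting run. *Fabp5* between strains in macrophage-like cells turned to -0.0804 when each barcode had the same weight. The 1 member higher in NOD/ShiLtJ capillary-like cells became 2 with classes from graph clusters and 2 with all endothelial-like barcodes, and the 0 lower became 3 at 1.5-fold. In macrophage-like cells the 1 higher became 0 with at most 10% mitochondrial UMIs, 0 with median-of-ratios scaling and 0 with barcodes weighted the same, and the 3 lower became 1 with free RNA subtracted and 5 at 1.5-fold. Of the other lipid genes, the 5 higher in NOD/ShiLtJ capillary-like cells became 3 at 1000 UMIs and 500 genes, 3 with at most 10% mitochondrial UMIs, 8 with graph clusters, 3 with barcodes weighted the same, 10 at 1.5-fold and 2 with at least 5000 UMIs, and the 2 lower became 5 at 1.5-fold. In macrophage-like cells 6 higher and 5 lower became 13 and 10 at 1.5-fold. The cause was not tested. Over 11 settings *Cd36* between strains in capillary-like cells ranged from 1.05 to 1.49 and *Apoe* in macrophage-like cells from -1.33 to -0.82. *Cd36* between classes ranged from -0.20 to 1.03 in NOD/ShiLtJ and from -2.03 to -0.69 in CD1. The highest value of each, 1.03 and -0.69, came with all endothelial-like barcodes. Using all endothelial-like barcodes, at least 5000 UMIs, or no shallow clusters was chosen after seeing the data. Median-of-ratios scaling moved the ratios between classes by 0.117 in NOD/ShiLtJ and 0.116 in CD1. No paired analysis was possible because each strain had 1 library, and no replicate could be left out.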

Other observations

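*Apoe* was also found in B-like cells of NOD/ShiLtJ, at 361 CPM (344 to 379 CPM) over 817 cells, above the free RNA estimate of 53.9 CPM. The CD1 library had 8 B-like cells, too few for a comparison. The UMIs were unevenly held: 85 cells had 4 or more *Apoe* UMIs and 626 had none, with median depths of 8373 and 5132.5 UMIs. None of the 85 had a high doublet score, and macrophage *C1qa* was at 2.68 CPM in them and 6.99 CPM in the 626. *Cd79a*, a part of the B cell receptor, was at 1402 and 1389 CPM in the same cells. Genes chosen after their values were seen were lower in the 85 cells, with *Ighd* at 76.4 against 294 CPM, *Cr2* at 188 against 542 CPM and *Fcer2a* at 85.8 against 458 CPM, while *Ighm* was at 315 and 307 CPM. Because the cells were divided on *Apoe* and differ in depth, these values are a description.

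NOD/ShiLtJ dendritic-like cells, 31 in number, held 202 CPM of *Fabp5* (159 to 253 CPM), and 1 of them held 56 of the 76 UMIs. Epithelial-like cells, 15 in NOD/ShiLtJ and 74 in CD1, held *Apoe* at 4432 and 1472 CPM.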
